A study of Mus musculus with 12 samples.

Results

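The high-dose combination of oxaliplatin (Oxali) and interferon γ (IFNγ) was compared with no treatment in Myc-CaP cells, with weight on the genes that neither treatment alone changed 2-fold. The samples were chosen by their titles: 2 of Combo2000 and 2 of Ctrl, 4 of the 12 RNA-seq libraries of the series. Of the 13177 genes with enough counts to test, 300 were combination-only by the rule used here. They were called in Combo2000 against Ctrl (Benjamini-Hochberg adjusted p under 0.05 in edgeR's quasi-likelihood test), changed at least 2-fold there, and had fitted changes under 2-fold in Oxali against Ctrl and in IFN2000 against Ctrl. Among them 179 were higher and 121 lower in the combination.

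Myc-CaP is an established prostate cancer cell line from a male FVB/NJ mouse that overexpresses Myc. All groups were this line with no other genetic change, and cells were treated for 48 h. Ctrl cells received no agent, Oxali cells 2 μM oxaliplatin, IFN2000 cells IFNγ labelled 2000 pg (per mL, by the methods of the study), and Combo2000 cells both at these doses. Combo200 cells received 2 μM oxaliplatin with IFNγ labelled 200 pg, and IFN200 cells that IFNγ dose alone. Each group had 2 libraries, and nothing in the labels says that they came from separate cultures, so the spread between them may be technical. For the 3 single treatments the title and a second label, the agent, name different treatments. The titles were used, and neither Ctrl nor Combo2000 is touched by the conflict.

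Oxaliplatin is a platinum drug that crosslinks DNA. IFNγ binds a receptor with JAK kinases, and its signal reaches target genes through GAS elements in promoters. It can also act through ISRE elements, which STAT2 and IRF9 occupy in a complex and which IRF1 binds as well. Known targets in tumor cells include guanylate binding proteins and immunity related GTPases, which act against microbes inside cells, and the genes of major histocompatibility complex class I (MHC-I) that load peptides and show them to CD8 T cells.

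Library totals ran from 18749975 to 25931516 counts. All 12 libraries expressed the luminal keratins Krt8 and Krt19, at 353 to 628 counts for Krt8, whereas Epcam was at 0 throughout and Krt18 and Cdh1 did not exceed 6 counts. The defining leukocyte genes Cd3d, Adgre1 and Itgam were at 0 in every Ctrl and Combo2000 library. The summed counts of other marker lists were higher in the combination all the same. Those of 10 macrophage and dendritic cell genes went from 461 and 551 in Ctrl to 1322 and 1231 in Combo2000, of 10 T cell genes from 14 and 14 to 61 and 69, and of 10 heart muscle genes from 19 and 28 to 125 and 88. Of these lists 5, 8 and 5 genes stayed at 3 counts or fewer in all 4 libraries, and the Oxali libraries gave like sums (1111 and 1112, 60 and 48, 142 and 113). Cells of another type and a change per cell cannot be told apart in bulk RNA. IFN2000 replicate 2 held 13 counts of Cd3d, 33 of Cd4 and 117 of Ifng, and 165 summed T cell counts against 9 to 77 in the other libraries. In Oxali replicate 1 the small nuclear RNA Rn7sk had 888 counts against 133 in its partner, and the mitochondrial ribosomal RNA gene mt-Rnr2 had 9106 against 2943. In IFN200 replicate 1 the heart muscle genes summed to 257 counts against 32 in its partner. Without IFN2000 replicate 2 the rule found 179 higher and 125 lower genes, and without Oxali replicate 1 it found 190 and 106. The part of these reads in single genes was not tested.

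In Combo2000 against Ctrl 4702 genes were called higher (35.7% of those tested) and 4411 lower (33.5%), together 69.2%. Changes of at least 2-fold were fewer and leaned upward, with 1502 genes higher (11.4%) and 471 lower (3.57%). Of the 1502 rises, 1119 were also at least 2-fold higher with Oxali alone and not with IFNγ alone, 26 with IFNγ alone and not with Oxali, and 176 with each. The remaining 181 reached 2-fold in neither, and in 2 of them a single treatment was at least 2-fold lower, which leaves the 179 combination-only rises. Of the 471 falls, 335 were also 2-fold lower with Oxali only, 4 with IFNγ only and 11 with each, and 121 with neither. Combination-only genes thus made up 11.9% of the 2-fold rises and 25.7% of the 2-fold falls.

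**Figure D1:**
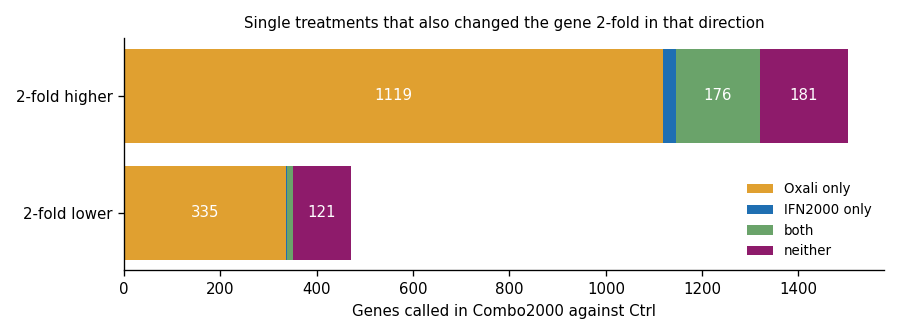
Number of genes called and at least 2-fold changed in Combo2000 against Ctrl (x axis, genes), split by whether Oxali alone, IFN2000 alone, both or neither also changed the gene 2-fold in that direction. The segment for neither holds 181 of 1502 rises and 121 of 471 falls.

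The 179 combination-only rises were a mixture. Oxali alone had also raised 120 of them, by less than 2-fold, and IFNγ alone 26, while 57 were called in neither single treatment. Over all tested genes 34.8% were called higher and 32.8% lower with Oxali, and 8.39% higher and 8.47% lower with IFN2000. The median log2 change of the 179 was 1.18 in the combination, 0.81 with Oxali and 0.07 with IFN2000. For 59 of them the log2 changes of the single treatments add up to 1 or more, and for 120 they do not. These contrasts chose the genes, so the counts describe the group and test nothing.

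The size of the step beyond Oxali separated the rises. Of the 179, 64 (35.8%) were also called higher in Combo2000 against Oxali, where 3.37% of all tested genes were called higher and 0.987% lower. Against IFN2000, 171 were called higher, with 38.5% of all genes higher and 33.8% lower. Of the 121 falls, 5 (4.13%) were called lower than Oxali and 101 lower than IFN2000. Both single-treatment contrasts entered the choice, so these shares too are descriptions.

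**Figure D2:**
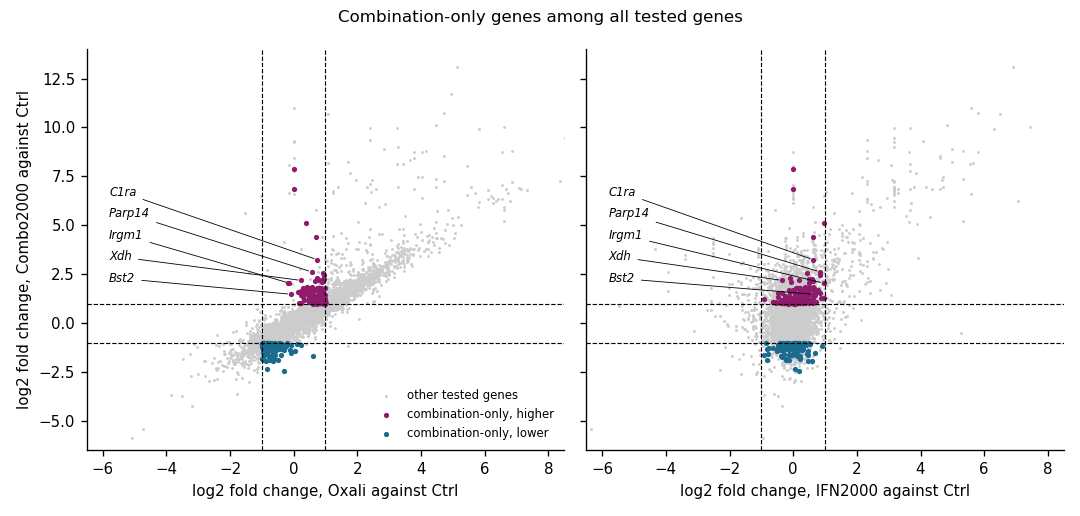
log2 fold change in Combo2000 against Ctrl (y axis) plotted against that with Oxali (left) or IFN2000 (right) for every tested gene, with the 179 higher and 121 lower combination-only genes in color and dashed lines at 2-fold. Irgm1 and Bst2 sit left of 0 on the Oxali axis, whereas many other rises crowd the Oxali limit of 1.

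Only 28 of the 179 rises stood on any of the 23 gene lists compiled for this cell line and these treatments, and 22 of those were on a list of interferon signaling, antiviral, sensing or antigen presentation genes. The 22 and the remaining 157 had unlike medians. For the 22 the median log2 change was 0.49 with Oxali, 0.37 with IFN2000 and 1.66 in the combination, and for the others 0.86, 0.05 and 1.12. Combo2000 exceeded Oxali by the test in 21 of the 22 and in 43 of the 157. In CPM (counts scaled to library size with TMM factors), the gains of both single treatments were added to the Ctrl mean. Both Combo2000 libraries lay above this sum for all 22, and for 127 of the 157. The share of all tested genes that did so is not given, so these counts only describe the chosen genes. No test of the difference between these subgroups was made, because both were cut from the chosen genes.

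Irgm1, a GTPase that acts on vacuoles holding microbes, was raised by IFNγ alone and not by Oxali. Its level was 61.4 and 58.6 CPM in the Ctrl libraries, 55.4 and 54.1 in Oxali, 118 and 116 in IFN2000 and 245 and 248 in Combo2000. Both combination libraries stood above all others, and both Oxali libraries lay below both controls. The log2 fold change was 2.04 ± 0.04 (SE, n = 2 per group) in the combination, -0.13 with Oxali and 0.97 with IFN2000, so that IFNγ alone stopped just short of 2-fold. Each SE after ± came from the F statistic of the edgeR test, with dispersion estimated over all 12 libraries. It is not the spread between the 2 libraries of a group.

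Bst2, which encodes tetherin, a protein that holds budding virus at the cell surface, followed the same order. Its CPM was 67.9 and 65.5 in Ctrl, 63.5 and 62.1 in Oxali, 105 and 101 in IFN2000 and 184 and 187 in Combo2000. The Oxali libraries were again the lowest, with a log2 change of -0.09, against 0.63 with IFN2000 and 1.47 ± 0.05 in the combination.

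Stat2, which encodes part of the complex that binds ISRE elements, behaved differently, since Oxali raised it and IFNγ hardly did. It stood at 24.5 and 24.2 CPM in Ctrl, 41.7 and 40.99 in Oxali, 24.9 and 27.4 in IFN2000 and 81.5 and 87.3 in Combo2000. The log2 change was 1.79 ± 0.06 in the combination, 0.76 with Oxali and 0.10 with IFN2000. Irf2, a relative of IRF1 that binds similar elements, was at the limit, with a log2 change of 1.00 ± 0.05 and a level of 73.02 and 78.1 CPM in Combo2000 against 37.5 and 37.9 in Ctrl.

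The combination-only rises included 4 genes of the poly(ADP-ribose) polymerase (PARP) family and Dtx3l, which encodes a ubiquitin ligase. The tested genes of this family were not counted, so no share stands beside the 4. Of all tested genes 1.36% were such rises. Parp14, which adds ADP-ribose to proteins, went from 17.1 and 15.5 CPM in Ctrl to 102 and 97.1 in Combo2000, with 25.3 and 23.1 in Oxali and 27.7 and 30.9 in IFN2000. The 2 combination libraries were each over 3 times any single-treatment library, and the log2 change was 2.61 ± 0.06. Parp9 and Dtx3l encode proteins that form a complex and lie side by side, within 50000 bases of each other, at chr16:35926511-35972605 (GRCm38). Parp9 was at 33.1 and 31.6 CPM in Ctrl and 99.3 and 102 in Combo2000, and Dtx3l at 33.2 and 30.2 and 98.02 and 99.01. They differed in the single treatments: IFN2000 gave a log2 change of 0.70 for Parp9 and 0.22 for Dtx3l, and Oxali gave 0.24 and 0.51. Parp11 rose by 2.21 ± 0.15 on the log2 scale, from 1.95 and 1.93 to 9.41 and 8.49 CPM.

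Further antiviral genes act through ubiquitin and its relatives. Trim21, a ubiquitin ligase that binds antibodies inside cells, was at 4.56 and 4.97 CPM in Ctrl and 24.9 and 27.7 in Combo2000. Its log2 change of 2.46 ± 0.11 compares with 0.95 for Oxali and 0.84 for IFN2000, both under the limit. Ube2l6, the conjugating enzyme for the ubiquitin-like protein ISG15, went from 18.6 and 17.2 to 63.3 and 64.6 CPM, a log2 change of 1.84 ± 0.06 against 0.43 and 0.37. Ifi35 changed by 1.20 and Samd9l, an antiviral gene on none of the lists, by 1.81.

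Of the 18 genes listed for MHC-I processing and presentation, 6 were combination-only. They were the heavy chain genes H2-K1 and H2-D1, the light chain gene B2m, the proteasome activator genes Psme1 and Psme2, and Erap1, whose product trims peptides. H2-K1 was at 88.4 and 85.9 CPM in Ctrl, 105 and 99.3 in Oxali, 114 and 104 in IFN2000 and 250.2 and 251 in Combo2000, with a log2 change of 1.52 ± 0.05 in the combination. The single treatments gave log2 changes of 0.23 for Oxali and 0.33 for IFN2000. B2m was at 735 and 707 CPM in Ctrl, 892 and 897 in Oxali, 817 and 769 in IFN2000 and 1622 and 1702 in Combo2000. Both combination libraries lay above all single-treatment libraries here too, and the log2 change was 1.20 ± 0.04. H2-D1 changed by 1.40 ± 0.04, Erap1 by 1.75 ± 0.04, Psme1 by 1.46 ± 0.05 and Psme2 by 1.64 ± 0.04. In each of these 4 genes both single treatments raised the level, by 0.32 at the least, for H2-D1 in IFN2000, and by 0.75 at the most, for Erap1 in Oxali.

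Further H2 genes, on no list, were looked at after their values were seen. H2-Q4 had a log2 change of 1.73, H2-T10 of 1.57, H2-M3 of 1.45 and H2-T22 of 1.27, and H2-Q1 and H2-Q2 met the rule as well. With H2-K1 and H2-D1 these make 8 combination-only rises among 15 tested genes with an H2 symbol, where 1.36% of all tested genes were such rises. H2-Q1, H2-Q2 and H2-Q4 lie together at chr17:35320405-35385290 (GRCm38). The H2 genes resemble each other, and the reference carries another H2 haplotype than FVB/NJ, so reads may have been lost or assigned to a relative and the values of single H2 genes are uncertain. The same holds for the Ifi200 genes below and for Psme2, which has a close copy in Psme2b.

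**Figure D3:**
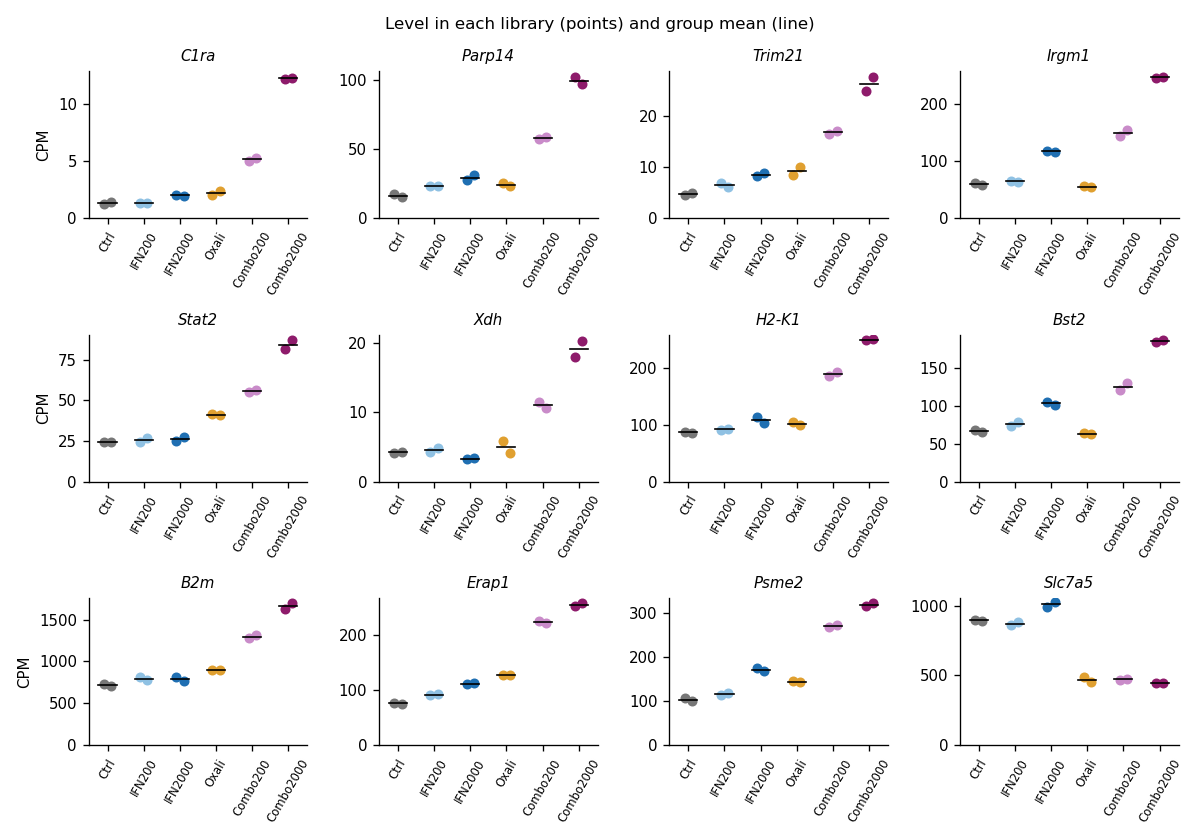
CPM (y axis, from 0) of 12 combination-only genes in each of the 12 libraries (points) with the group mean (line), in 6 groups of 2. For the 11 rises both Combo2000 points are the highest of all, with both Combo200 points next, while Slc7a5 is about as low with Oxali as in either combination.

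C1ra, the gene of a complement protease, had the largest change among the rises above a mean of 1 log2 CPM. It was at 1.22 and 1.37 CPM in Ctrl, 2.03 and 2.34 in Oxali, 2.06 and 1.96 in IFN2000 and 12.3 and 12.4 in Combo2000, a change of 9.44-fold. On the log2 scale this was 3.24 ± 0.15, against 0.74 for Oxali and 0.63 for IFN2000.

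Xdh, which encodes the purine-degrading enzyme xanthine dehydrogenase, had the largest excess over the sum of the single log2 changes among the 12 largest rises above a mean of 1 log2 CPM. Its CPM was 4.17 and 4.26 in Ctrl, 5.85 and 4.10 in Oxali, 3.30 and 3.35 in IFN2000 and 17.97 and 20.4 in Combo2000. Neither single treatment was called, and the IFN2000 libraries were the lowest of the 8. The log2 change was 2.18 ± 0.13, and the interaction, the change with IFN2000 in the presence of Oxali minus that in its absence, was 2.28 ± 0.22. Idnk, a gluconate kinase gene, changed by 1.82 ± 0.08, with 0.57 and 0.64 in the single treatments.

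Genes that sense nucleic acids formed a further set. Tlr3, the receptor for double-stranded RNA in endosomes, went from 28.3 and 28.7 CPM in Ctrl to 63.5 and 61.98 in Combo2000, a log2 change of 1.14 ± 0.06. The Ifi200 family of DNA-binding proteins contributed Ifi202b at 2.27 ± 0.17, Ifi204 at 1.68 ± 0.23 and, from few counts, Ifi203 and Mndal. Mndal, Ifi203 and Ifi202b lie at chr1:173849126-173982744 (GRCm38). The counts of Ifi203 were 3 and 3 for Ctrl with 22 and 26 for Combo2000, those of Mndal 3 and 3 with 17 and 11, so that no Ctrl library exceeded 3.

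Among the remaining listed members, Mlkl, the executor of necroptosis, was at 30.4 and 29.9 CPM in Ctrl and 61.1 and 59.9 in Combo2000. Its log2 change was 1.00 ± 0.05, of which IFN2000 alone reached 0.48 and Oxali 0.17. Atf3, a stress-response factor, changed by 1.26 ± 0.07, with 0.80 and 0.64 in the single treatments, whose sum exceeds the combination. Steap4, a metalloreductase gene listed with luminal genes, changed by 1.03 ± 0.05, and Oxali alone gave 1.00, just inside the limit. Its CPM was 48.2 and 47.00 in Oxali and 50.01 and 47.5 in Combo2000, and the ranges overlap. Il18 and Tnfaip2 were too sparse for their folds to be read closely, with 11 and 9 counts of Il18 and 3 and 1 of Tnfaip2 in Ctrl against 27 and 36 and 12 and 7 for the combination.

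Promoters of the named rises were read for the GAS letters TTCNNNGAA and for the ISRE core GAAANNGAAA, each on both strands, in the 250 bases before and 50 after each RefSeq start (GRCm38.p6). The sequences shown are a selection of rises that held a match, and Cxcl9, a gene near 0 outside the combination, which held none. Irf2, with a GAS match and an ISRE core, is not shown. Rises without a match, such as Ube2l6, Idnk and Samd9l, are not shown either. The printed sequences run 5′ to 3′ on the strand of the gene, and capitals mark matches, which overlap in Bst2, Irgm1, Trim21 and Parp11. RefSeq gave Parp11 a second start, whose promoter held no match.
Irgm1, chr11:48871371-48871670, minus strand: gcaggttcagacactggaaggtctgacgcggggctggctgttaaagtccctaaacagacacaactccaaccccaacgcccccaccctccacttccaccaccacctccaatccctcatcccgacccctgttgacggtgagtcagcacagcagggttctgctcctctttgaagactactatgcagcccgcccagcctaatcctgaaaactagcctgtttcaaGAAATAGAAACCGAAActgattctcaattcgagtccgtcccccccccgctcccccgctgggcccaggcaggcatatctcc
Bst2, chr8:71537423-71537722, minus strand: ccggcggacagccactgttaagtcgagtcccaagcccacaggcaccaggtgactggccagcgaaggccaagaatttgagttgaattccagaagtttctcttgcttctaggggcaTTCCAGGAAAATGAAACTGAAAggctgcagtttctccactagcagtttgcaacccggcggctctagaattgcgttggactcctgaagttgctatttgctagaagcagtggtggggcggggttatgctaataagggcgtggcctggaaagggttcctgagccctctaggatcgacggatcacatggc
Trim21, chr7:102565433-102565732, minus strand: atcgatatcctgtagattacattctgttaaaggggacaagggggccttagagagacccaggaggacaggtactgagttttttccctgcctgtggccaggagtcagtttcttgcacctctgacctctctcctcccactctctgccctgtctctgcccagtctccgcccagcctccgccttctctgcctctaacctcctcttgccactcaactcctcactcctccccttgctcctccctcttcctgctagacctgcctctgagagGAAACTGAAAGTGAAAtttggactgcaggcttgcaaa
Parp11, chr6:127446590-127446889, plus strand: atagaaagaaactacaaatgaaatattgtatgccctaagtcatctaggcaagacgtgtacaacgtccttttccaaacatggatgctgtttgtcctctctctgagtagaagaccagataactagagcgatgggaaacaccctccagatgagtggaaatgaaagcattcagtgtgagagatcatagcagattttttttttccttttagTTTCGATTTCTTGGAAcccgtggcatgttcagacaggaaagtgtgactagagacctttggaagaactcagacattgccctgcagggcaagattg
Stat2, chr10:128270248-128270547, plus strand: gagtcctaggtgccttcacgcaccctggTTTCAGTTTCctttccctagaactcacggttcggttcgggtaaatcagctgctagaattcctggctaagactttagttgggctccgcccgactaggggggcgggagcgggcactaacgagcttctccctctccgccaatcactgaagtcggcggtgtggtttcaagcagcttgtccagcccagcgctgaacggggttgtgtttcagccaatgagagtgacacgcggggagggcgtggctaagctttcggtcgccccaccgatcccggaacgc
C1ra, chr6:124512371-124512670, plus strand: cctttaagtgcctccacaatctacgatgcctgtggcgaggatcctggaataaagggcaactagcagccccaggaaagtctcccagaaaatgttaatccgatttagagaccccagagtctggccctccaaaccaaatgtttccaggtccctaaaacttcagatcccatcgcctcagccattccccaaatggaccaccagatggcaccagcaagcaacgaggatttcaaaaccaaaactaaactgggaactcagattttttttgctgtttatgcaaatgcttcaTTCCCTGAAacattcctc
Cxcl9, chr5:92328030-92328329, minus strand: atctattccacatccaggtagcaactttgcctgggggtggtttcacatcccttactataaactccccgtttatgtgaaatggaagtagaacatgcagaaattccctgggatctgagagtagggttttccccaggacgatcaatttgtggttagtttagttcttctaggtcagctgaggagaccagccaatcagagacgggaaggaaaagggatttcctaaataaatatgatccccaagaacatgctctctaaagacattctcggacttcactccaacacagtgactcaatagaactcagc

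Irgm1 held 2 overlapping ISRE cores that begin 30 and 24 bases before the start, and Bst2 held 1 GAS match followed by 2 ISRE cores between 136 and 115 bases before it. Of the 12 largest rises, 10 had a RefSeq promoter, and 6 of these held a GAS or an ISRE core. Of the 179 rises, 133 had a promoter, and 35 of these genes (26.3%) held either, with a GAS in 15.8% and an ISRE core in 12.8%. Here and below a gene counted if the promoter of any of its starts held a match. Over the 9596 tested genes with a promoter the shares were 11.5%, 8.46% and 3.63%, and over all 27025 genes with one they were 12.9%, 9.55% and 3.99%. Among the falls 3 of the 43 genes with a promoter (6.98%) held a GAS and 0 an ISRE core. Of the 21 genes near 0 outside the combination, described next, 9 had a promoter and 1, Rsad2, held an ISRE core. The letters GGGNNNNTCC, a loose κB core, were held by 36.1% of the rises with a promoter, 32.6% of such falls and 27.7% of such tested genes (21.3% of all). For the E-box CACGTG the shares were 6.02%, 11.6% and 11.9% (8.09%). A match describes the letters only.

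The fitted 2-fold rule misses genes that are near 0 without both agents, because a few reads in a single-treatment library can give a large fitted fold. A second class was therefore added after the data had been examined: genes with at most 3 counts in each of the 6 Ctrl, Oxali and IFN2000 libraries and at least 10 in both Combo2000 libraries. There were 21 such genes among the 39050 at 3 counts or fewer in those 6 libraries, of which 28300 had no count in any of the 12 libraries. Of the 21, 19 passed the filter and 4 were combination-only by the fitted rule (Oas2, Gbp6, Acod1 and Slc6a19). No gene met the same rule with Oxali, IFN2000 or Ctrl as the single high group. There the Combo2000 libraries, treated with both agents, also had to stay at 3 counts or fewer, so this sets no standard for the 21.

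The chemokine genes Cxcl11 and Cxcl9, whose products attract T cells through CXCR3, were among the most changed of them. Cxcl11 had 0 and 0 counts in Ctrl, 1 and 1 in Oxali, 1 and 2 in IFN2000 and 146 and 137 in Combo2000. Cxcl9 had 0 and 0, 0 and 1, 1 and 0 and 93 and 87 counts in the same groups. Neither exceeded 2 counts in any library of the other 3 groups. Set against 3 counts per library, Cxcl11 was at least 35.5-fold higher than Ctrl, at least 40.3-fold higher than Oxali and at least 43.2-fold higher than IFN2000. For Cxcl9 these lower bounds were 22.6, 25.6 and 27.5.

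Batf2, a transcription factor gene induced by IFNγ, had 2 and 0 counts in Ctrl, 1 and 0 in Oxali, 2 and 3 in IFN2000 and 147 and 118 in Combo2000. It was at least 33-fold higher than Ctrl and at least 40.2-fold higher than IFN2000. Its fitted change was at least 2-fold lower with Oxali, from 2 and 0 against 1 and 0 counts, which kept it out of the 179.

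Interferon-induced GTPase genes gave 5 members of the class. Gm4951 had 145 and 133 counts in Combo2000 and no more than 1 in any library of the other 3 groups, and F830016B08Rik had 99 and 76 and no more than 2. The guanylate binding protein genes Gbp11, Gbp6 and Gbp8 had 40 and 37, 34 and 30 and 33 and 28 counts. Gbp6 was at 0 in all 6 libraries outside the combination, and at least 8-fold higher than Ctrl. These genes belong to families of close copies, so reads may be shared between them.

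Zbp1, a sensor of Z-form nucleic acid that can start necroptosis, had 58 and 37 counts in Combo2000, Oas2, a synthetase that responds to double-stranded RNA, 51 and 52, and Rsad2, the antiviral enzyme viperin, 17 and 15. Acod1, which makes itaconate in macrophages, had 17 and 17. Nrxn3, a gene of synaptic adhesion, had 71 and 51 counts against 2 and 2 in Oxali and 1 and 0 in IFN2000, with both Combo2000 libraries far above. The other members were the pseudogene BC023105, Ms4a4d, St14, Ptk6, Exoc3l4, Slc6a19, C1rl and Sectm1b, with between 10 and 105 counts in a Combo2000 library.

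The 4 libraries of Combo200 and IFN200 took no part in this choice. In IFN200 none of the 21 genes exceeded 2 counts in a library. In Combo200, 17 of the 21 exceeded 3 counts in both libraries. Of the 19 that were tested, 17 were called higher than in IFN200, where 36.5% of all tested genes were called higher. The Combo2000 counts, for which the genes were chosen, also helped them past the filter on low counts, so this number describes them. The exceptions were Gbp8, with 0 and 1 counts in Combo200 (edgeR, adjusted p = 0.347), and Cxcl9, with 1 and 2 (edgeR, adjusted p = 0.0755). Nrxn3 already had 23 and 23 counts at the lower dose (edgeR, adjusted p = 2.48e-06).

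**Figure D4:**
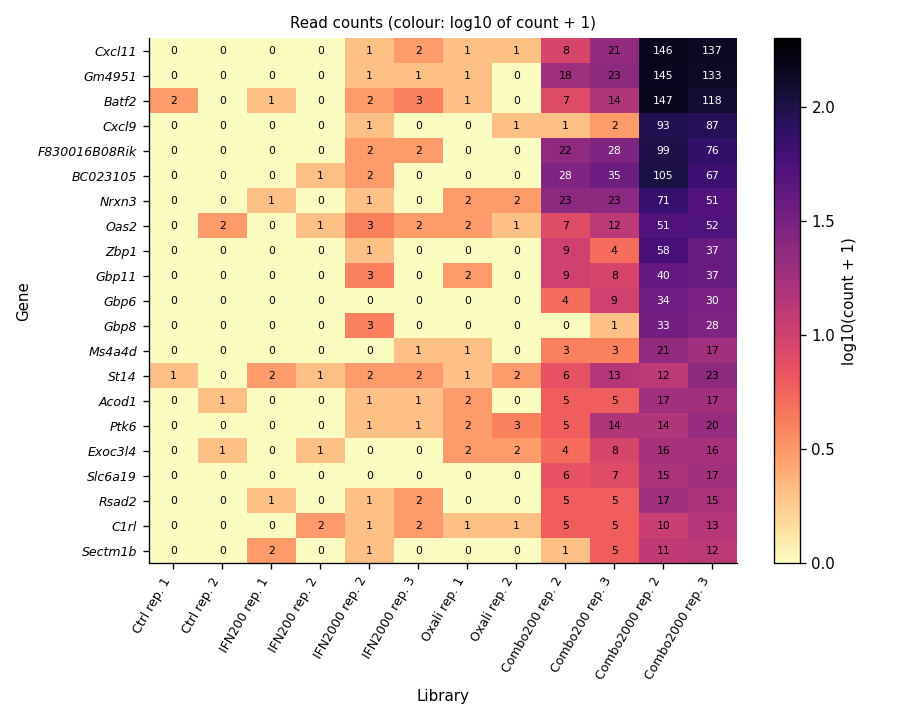
Read counts (numbers, color on a log10 scale) of the 21 genes with at most 3 counts in every Ctrl, Oxali and IFN2000 library and at least 10 in both Combo2000 libraries. Combo200 libraries (0 to 35 counts) stand between the single treatments and Combo2000 for most genes.

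The falls had another make-up. Oxali alone had lowered 54 of the 121 and IFNγ alone 6, and 66 were called in neither. Their median log2 change was -1.19 in the combination, -0.79 with Oxali and -0.05 with IFN2000. Among those with an annotation 46.0% were protein-coding genes, against 83.6% of the rises and 86.9% of all tested genes, and 27 were processed pseudogenes and 8 small nucleolar RNAs. Most were sparse: the median level was 1.09 CPM in Ctrl and 0.444 in Combo2000, and 37 of the 121 had a mean of at least 1 log2 CPM, compared with 115 of the 179 rises. In Ctrl the rises had a median of 2.55 CPM and all tested genes 28.9 CPM.

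Among the better measured falls, Msrb2, a mitochondrial enzyme that repairs oxidized methionine, had the largest change. It was at 23.6 and 23.6 CPM in Ctrl, 13.1 and 12.8 in Oxali, 17.7 and 16.1 in IFN2000 and 9.56 and 9.10 in Combo2000. Both single treatments lowered it, and the combination lowered it further, to a log2 change of -1.34 ± 0.08, which equals the sum of -0.86 for Oxali and -0.48 for IFN2000 to the second decimal. Tfb2m, a mitochondrial transcription factor gene, was at 12.7 and 12.7 CPM in Ctrl, 7.92 and 8.11 in Oxali and 5.93 and 5.60 in Combo2000, with log2 changes of -1.13 ± 0.11 in the combination and -0.66 with Oxali. These are 2 of the 5 falls that were also called lower than Oxali. The other three were Top2b, at -1.03, BC005537, at -1.04, and the sparse transcript Gm45592, named here after their values were seen.

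The other large falls were called lower with Oxali as well and were not called against Oxali. Poc1b, a centriole gene, changed by -1.22 ± 0.10 against -0.94 with Oxali. Dpep1, a dipeptidase gene, changed by -1.19 against -0.95, and Gcat, which breaks down threonine, by -1.18 against -0.96. Mpg, a glycosylase that removes alkylated bases from DNA, changed by -1.17 against -0.89, Slc39a3, a zinc transporter gene, by -1.17 against -0.92, and Phykpl by -1.14 against -0.93. Sbk1, Gm6477, Pappa2 and Tmem203 had log2 changes of -1.19 to -1.17. In none of these 10 genes was IFN2000 called, and its largest log2 change among them was -0.23, for Sbk1. Processed pseudogenes such as Gm6477 share sequence with their parent genes, and use of strand in the counting is not stated, so values of pseudogenes and antisense transcripts are uncertain.

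Only 1 listed gene was among the falls. Hmgcs1, an early enzyme of cholesterol synthesis, went from 46.3 and 44.9 CPM in Ctrl to 24.2 and 22.1 in Oxali and 22.5 and 21.9 in Combo2000. The log2 change was -1.04 ± 0.06 in the combination and -0.97 with Oxali, on either side of the limit. Slc7a5, a transporter of large amino acids, was the fall nearest the limit, at 897 and 893 CPM in Ctrl, 487 and 453 in Oxali, 994 and 1023 in IFN2000 and 447 and 448 in Combo2000. IFN2000 raised it by 0.17 on the log2 scale and Oxali changed it by -0.93.

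Many members lay near a limit of the rule. Of the 179 rises, 110 had a log2 change of 0.75 or more with Oxali, and 51 reached 1.5 in the combination. For the falls 66 of 121 had a change of -0.75 or beyond with Oxali, and 23 reached -1.5. Just inside the combination limit were Zswim8, Ccdc96 and Irf2 at 1.0 to 1.002, and just outside Ripk2, Bmp1 and Plcb4 at 0.998 to 0.995. At the Oxali limit Asb15, Sh3d19 and 6030443J06Rik were inside, at 0.999 to 0.996, and S1pr2, Ptpn14 and Slc12a7 outside, at 1.001 to 1.002. At the IFNγ limit Oas2 (0.97), Irgm1 (0.97) and Snhg14 (0.95) were inside, and Il18bp, C230035I16Rik and Tapbpl (1.00 to 1.01) outside. Among the falls Slc7a5, Spaca6 and Abcb9 were just inside the combination limit, at -1.0 to -1.004, and Tceanc, Slc25a13 and Pcsk4 just outside, at -0.999 to -0.998. Gm9892, Slc2a4rg-ps and Angel1 were inside the Oxali limit, at -0.998 to -0.992, and Hmgb1, Gm13431 and Afg3l1 outside, at -1.001 to -1.004. Gm36787 (-0.91), Bcat1 (0.90) and 4833413G10Rik (-0.85) were nearest the IFNγ limit from inside, and Gm27002, Eppin and Mgp (-1.02 to -1.58) from outside.

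With single treatments held under 1.5-fold in place of 2-fold, 30 rises and 25 falls were left. Of the 30, 27 were protein-coding, 10 stood on the interferon lists and 23 were called higher than Oxali. They included H2-K1, H2-D1, B2m, Dtx3l, Ube2l6, Ifi35, Tlr3 and Xdh. Of the 25 falls, 5 were protein-coding and 2 had a mean of at least 1 log2 CPM. Under 21 other settings (another scaling, filter, test or set of samples, with the stricter filter on low counts and other definitions of the rule left aside), 58 rises and 12 falls met the rule each time. The 58 held Parp9, Parp10, Parp11, Parp14, Dtx3l, Stat2, Bst2, C1ra, Xdh, Ube2l6 and Samd9l, and also H2-K1, H2-D1, B2m, Erap1, Psme1 and Psme2. The 12 held Msrb2, Sbk1, Gm6477 and Tfb2m. Irgm1 was not among the 58, since without Ctrl replicate 1 its change with IFN2000 passed 2-fold, and Trim21 and Irf2 were not either. Irgm1 and Trim21 also failed the 1.5-fold limit.

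The comparison of Combo200 with IFN200 used none of the libraries that chose the genes. It asks what Oxali does to them at the lower IFNγ dose, and cannot give IFNγ's own part. Of the 179 rises, 154 (86%) were called higher there, against 36.5% of all tested genes, and 100 were at least 2-fold higher by the fit. Their median log2 change was 1.04. Of the 121 falls, 77 (63.6%) were called lower, against 33.5% of all genes, with a median of -0.91. Oxali alone had already raised 120 of the 179 and lowered 54 of the 121. The shares over all tested genes are therefore no measure of what the combination adds. Combo2000 counts also helped Oas2, Gbp6, Acod1 and Slc6a19, among the rises, past the filter on low counts. Without IFN200 replicate 1, the library with heart muscle reads, 139 of 171 rises and 67 of 120 falls were called.

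Most named members were called in that comparison too. Irgm1 was at 65.02 and 63.4 CPM in IFN200 and 143 and 154 in Combo200, a log2 change of 1.21 ± 0.04 (edgeR, adjusted p = 8.21e-15). Bst2 changed by 0.71 ± 0.05 (edgeR, adjusted p = 4.9e-11), and Oxali alone had raised neither gene. Parp14 changed by 1.33 ± 0.06, Stat2 by 1.14 ± 0.06, C1ra by 1.97 ± 0.16 and Xdh by 1.28 ± 0.13, with edgeR adjusted p of 2.47e-13, 1.5e-12, 1.89e-09 and 5.05e-08. H2-K1 changed by 1.04 ± 0.05 (edgeR, adjusted p = 1.26e-13). Mndal (edgeR, adjusted p = 0.476) and Ifi203 (edgeR, adjusted p = 0.0878) did not pass.

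In the combinations, both Combo200 libraries lay between both Ctrl and both Combo2000 libraries in 94 of the 179 rises (52.5%) and in 40 of the 121 falls (33.1%). Over all genes called and at least 2-fold changed in Combo2000 against Ctrl, this order held in 30.5% of rises and 25.7% of falls. The Ctrl and Combo2000 libraries chose these genes, so the order is a description with no test.

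Across the whole comparison the markers Iigp1, Gbp3 and Gbp2 were far beyond the combination-only genes and were raised by a single treatment as well. Gbp2 went from 1.00 and 0.912 CPM in Ctrl to 30.6 and 30.8 in IFN2000 and 286 and 293 in Combo2000, a log2 change of 8.23 ± 0.10 (edgeR, adjusted p = 6.9e-22). Gbp3 rose by 8.91 ± 0.10 (edgeR, adjusted p = 2.72e-22), from 5 and 8 counts to 4527 and 3942. The counts of Iigp1 were 0 and 2 for Ctrl, 2 and 3 for Oxali, 121 and 118 for IFN2000 and 2456 and 2305 for Combo2000, at least 597-fold over Ctrl. Gbp5, at 0 in both Ctrl libraries and at 1392 and 1068 counts in the combination, was at least 306-fold higher and Apol6 at least 143-fold. Psmb9 and Psmb8, subunits of the immunoproteasome, rose by 8.14 and 7.48, and the GTPase genes Irgm2, Igtp and Gbp7 by 7.32, 6.95 and 6.94. Iigp1, Gbp2, Gbp3 and these genes were the 10 largest rises once genes averaging under 1 log2 CPM were set aside. Of the 10 tested immunity related GTPase genes, Irgm1 was the one that met the combination-only rule.

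The 10 largest falls by the same rule were all called lower with Oxali alone as well. Cps1, the first enzyme of the urea cycle, went from 72.3 and 61.6 CPM in Ctrl to 2.12 and 1.81 in Oxali and 1.26 and 0.991 in Combo2000, a log2 change of -5.87 ± 0.14 (edgeR, adjusted p = 1.12e-17). The ETS factor genes Etv5 and Etv4 had log2 changes of -2.96 and -2.90, against -2.67 and -2.49 with Oxali. Rpl22l1, Krt79, Wfdc12, Krt76, Dera, Gm49602 and Tcea2 followed, at -2.34 to -2.09. Of the 10, only Krt79 was called lower than Oxali, with a log2 difference of -0.87 ± 0.23 (edgeR, adjusted p = 0.0357).

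Gene lists of interferon targets were called higher than Oxali most often. The lists were compiled with earlier results of these data known. All 11 guanylate binding protein genes and all 10 tested immunity related GTPase genes were called higher than Ctrl and higher than Oxali, with median log2 changes against Ctrl of 6.05 and 5.40 when genes with at most 3 counts in each Ctrl library are set at their bound. The fitted medians of these lists, 8.12 and 7.13, depend on the prior count. Of 32 antiviral genes 30 were higher than Ctrl and 28 than Oxali (median with bounds 2.29). By fitted fold Zbp1, Apol9a, Oas3 and Rsad2 led. Zbp1 and Rsad2 had 0 counts in both Ctrl libraries, so their place depends on the prior count. Their lower bounds over Ctrl were 11.7-fold and 4-fold. The numbers of called genes stand beside 35.7% of all tested genes called higher and 33.5% lower than Ctrl, and 3.37% higher than Oxali. Of the 18 MHC-I genes 14 were higher and 3 lower than Ctrl, and 14 were higher than Oxali. Nlrc5, Psmb9, Psmb8 and Tap1 led, and Canx (-0.08), Pdia3 (-0.19) and Sec22b (-0.32) went the other way. Over all 13177 tested genes the median was 0.02 against Ctrl and 0.00 against Oxali.

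Signaling and secreted genes moved in part, and the same 35.7% higher and 33.5% lower over all tested genes stand beside their counts against Ctrl. Of 14 receptor, JAK, STAT and IRF genes 12 were higher than Ctrl and 1, Irf3 (-0.33), lower, with a median of 1.40, and 8 exceeded Oxali. Irf8 (3.78), Irf7 (3.72) and Irf1 (3.54) were among the most changed. Of 10 negative regulators 7 were higher and 2 lower (median 0.32), with Usp18 at 4.79 and Socs1 at 3.27, and Socs3 (-0.21) and Sh2b3 (-0.41) lower. Of 12 chemokine genes 9 were higher, among them Ccl5 and Cxcl10, and Cxcl5 was lower (-0.77). Of 6 MHC class II genes 5 were higher, with Cd74 and Ciita in front, and Ifi30 was lower (-0.58). Of 10 checkpoint and costimulator genes 6 were higher, including Cd274, which encodes PD-L1, at 3.80, and Ido1. Of 9 cytokine genes 8 were higher, led by Csf1 and Il18bp, and Il33 was lower (-0.29). Of 10 complement genes 7 were higher, with C1s1, C4b and C3 ahead of C1ra.

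Death, stress and growth lists had medians against Oxali between -0.13 and 0.12, except for nucleic acid sensing (0.53). Against Ctrl, 15 of 24 cell death genes were higher and 4 lower (median 0.67), set against 35.7% and 33.5% of all tested genes, with Casp4 and Fas among the rises and Bax (-0.79) among the falls, and 8 exceeded Oxali. Of 15 nucleic acid sensing genes 10 were higher and 2 lower (median 0.68). Of 20 NF-κB genes 16 were higher and 2 lower (median 0.96), with Vcam1, Traf1, Nfkbie and Relb in front. Of 20 MYC targets 18 were lower and 1 higher (median -0.57), and of 20 cholesterol and fatty acid genes 18 lower (median -0.99), with 10 of these at least 2-fold. Of 14 unfolded protein and stress genes 8 were lower and 4 higher (median -0.50), Ddit3 (2.16) and Atf3 (1.26) being among the latter. The counts of p53, replication and mitosis genes lie near the shares over all tested genes (35.7% higher, 33.5% lower). Of 22 p53 targets 9 were higher and 9 lower (median 0.04), of 20 replication genes 7 were lower and 5 higher, and of 20 mitosis genes 9 lower and 7 higher. Of 14 MAPK genes 7 were lower and 3 higher, and of 15 matrix and mesenchymal genes 14 higher and 1, Itgb3 (-1.38), lower.

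**Figure D5:**
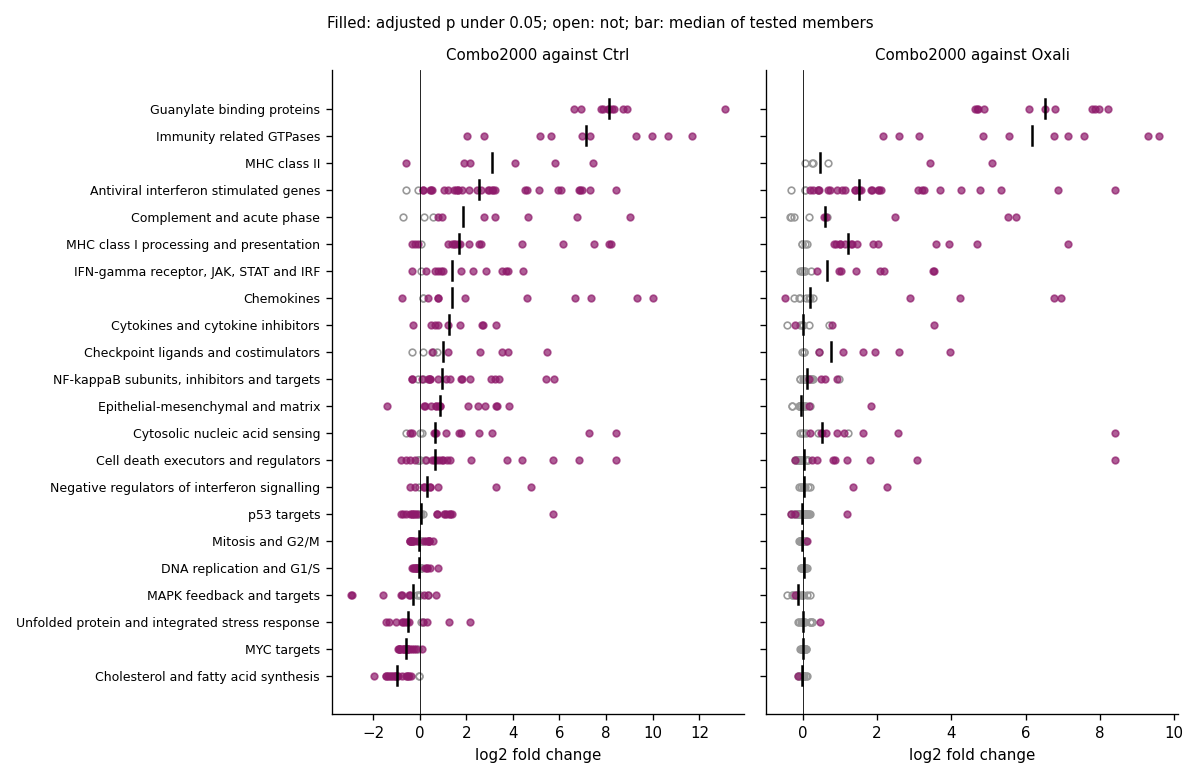
log2 fold change of each tested member of 22 of the gene lists in Combo2000 against Ctrl (left) and against Oxali (right), filled where called, with the list median of the fitted values as a bar. Guanylate binding proteins and immunity related GTPases lie right of 0 in both panels, whereas cholesterol and MYC target genes lie left of 0 against Ctrl and near 0 against Oxali.

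Some changes of a single treatment did not reach 2-fold in the combination. Oxali alone changed 219 such genes, 129 higher and 90 lower. Of these, 134 were still called in the same direction with the combination, where 35.7% of all tested genes were called higher and 33.5% lower. Against Oxali 12 were called different, where 3.37% of all tested genes were called higher and 0.987% lower. The contrasts with Ctrl chose the 219 genes, so the counts only describe these genes. Ly6a, a surface antigen gene induced by interferons, had the largest fall with Oxali of these, at 132 and 123 CPM in Ctrl, 24.1 and 23.7 in Oxali, 176 and 171 in IFN2000 and 79.2 and 87.6 in Combo2000. Both combination libraries lay between Oxali and Ctrl, with log2 changes of -2.42 for Oxali and -0.61 ± 0.05 for the combination. S100a7a (1.39 with Oxali, 0.99 in the combination) and Grk4 (1.32 and 0.94) were rises of this kind, as was Rn7sk, where Oxali replicate 1 alone was high. Gm6136 (-1.34 and -0.70) and Ppm1k (-1.35 and -0.90) were falls.

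IFN2000 alone changed 31 genes 2-fold that the combination did not, 10 higher and 21 lower. Of these, 3 were called in the same direction in the combination, beside the same 35.7% higher and 33.5% lower over all tested genes. Klhl24 was at 27.5 and 22.9 CPM in Ctrl, 8.61 and 8.70 in IFN2000 and 22.01 and 19.2 in Combo2000, and Mxd4, a MAX-binding repressor gene, at 38.6 and 32.9, 13.5 and 15.04 and 55.8 and 56.5. In Mxd4 the directions were opposite, with log2 changes of -1.32 in IFN2000 and 0.65 in the combination. Tcp11l2 changed by -1.30 and -0.88. None of the 10 rises had a mean of 1 log2 CPM. Both IFN2000 libraries showed lower log2 ratios to Ctrl for longer transcripts (Spearman -0.346 and -0.187 across 13024 genes, which are not independent), where the Combo2000 libraries gave 0.087 and 0.042. The part of this trend in the changes of IFN2000 was not tested.

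The interaction at the 2000 pg dose was called higher for 280 tested genes (2.12%) and lower for 79 (0.6%). Among the combination-only genes it was called higher for 37 of the 179 rises and lower for 1 of the 121 falls. The 37 included 17 of the 22 rises on the interferon lists. Since the interaction is made of the contrasts that chose these genes, its values describe how far each stood from the sum of the single log2 changes.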

How the data were processed

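Gene-level counts of 12 libraries were analysed as deposited. The authors made stranded poly(A) libraries, and their methods name STAR for alignment to GRCm38 with GENCODE vM12 and featureCounts for the gene counts, while their processing notes list STAR 2.7.3a and RSEM 1.3.0. The deposited counts were whole numbers, and use of strand in the counting is not given in the sources used here. Totals per library ranged from 18749975 to 25931516.

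Samples were grouped by title. Genes passing filterByExpr were scaled with TMM factors and fitted in edgeR 4.0.16 (R 4.3.3) with quasi-likelihood tests, all 6 groups of 2 sharing 1 dispersion trend. Called means a Benjamini-Hochberg adjusted p under 0.05 over 13177 genes. Folds over Ctrl libraries at 3 counts or fewer are bounds against 3 counts per library, and cover counting error only. Genes were named by size of change, list membership and closeness to a limit. The members, lists and rules were chosen with earlier results of these data known. Scripts were tested on simulated data. Promoters came from RefSeq (GRCm38.p6). Alternatives included DESeq2 1.42.0, other scalings and filters, length and GC correction, a replicate block, the agent labels and leaving out each library. Same-numbered libraries were compared within Ctrl, IFN200 and Oxali, and within IFN2000, Combo200 and Combo2000. Correlations of their deviations lay between -0.046 and 0.017, which gave no sign of pairing there. Ctrl and Combo2000 were not compared in this way.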

Additional observations from a re-analysis of the deposited data

Results flagged for a closer look

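The effect of IFNγ at the 2000 pg dose differed with and without oxaliplatin, by the interaction term of the edgeR fit, in 37 combination-only rises and 1 combination-only fall. The genes were chosen from the same libraries, so these values describe them and are no further evidence. All are log2 differences, positive where the log2 change with IFN2000 was higher in the presence of Oxali than in its absence. For Steap4 these changes were 0.04 and -0.37, so its positive value was no rise with IFN2000. The largest was that of Xdh (2.28), followed by C1ra (1.87). Among the antiviral and GTPase genes it was 1.22 for Parp11, 1.2 for Irgm1, 1.19 for Parp14, 1.04 for Ube2l6, 0.93 for Bst2, 0.92 for Dtx3l, 0.82 for Samd9l, 0.7 for Parp9, 0.67 for Trim21 and 0.38 for Ifi35. Of the antigen presentation genes, H2-K1 had 0.97, B2m 0.76, H2-D1 0.53, Erap1 0.44, Psme2 0.41 and Psme1 0.33. Stat2 had 0.93, Idnk 0.61, Tlr3 0.47, Steap4 0.41, Mlkl 0.35 and Irf2 0.31. Slc7a5, the fall, had -0.24.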

How the results depend on the processing

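None of the results run changed direction under any alternative. The stricter filter of a mean of 50 counts gave 768 rises and 211 falls of 2-fold, 101 and 36 combination-only genes, and 101 and 34 of these called in Combo200 against IFN200. A single-treatment limit of 1.5-fold gave 30 and 25 genes, 23 and 13 of them called at the lower dose. DESeq2 gave 143 rises and 77 falls. Of the alternatives added after the data were examined, at most 3 counts in each other library gave 21 genes, and asking for a call against Oxali left 64 rises and 5 falls. Leaving out each library in turn gave 8201 to 9303 called genes, 1397 to 1554 rises and 410 to 495 falls of 2-fold, 138 to 191 combination-only rises and 88 to 138 falls, with 123 to 168 and 58 to 89 called at the lower dose. The lowest numbers of combination-only genes came without Ctrl replicate 2, where 97 of the 138 rises and 57 of the 88 falls were shared with the full set. Ctrl and Combo2000 share only replicate number 2. With a replicate block 8446 genes were called, and 188 rises and 119 falls were combination-only, of which 142 and 86 were shared. Naming the single treatments by their agent label gave 191 and 123. Of 1389 values of the 64 named members, 33 lost their call, in Snhg14, Tnfaip2, Mndal, Il18, Bcat1, Gm36787 and Ccdc96.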
